A study of Homo sapiens with 17 samples.

Results

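A549 and H2122 are human lung adenocarcinoma lines that lack active LKB1, the kinase encoded by STK11, and they were compared here with no active LKB1 restored. The comparison took every array titled pBABE or LKB1KD, which gave 6 A549 arrays and 5 H2122 arrays, 11 of the 17 in the series. Each line had been stably transduced with a pBABE retroviral construct and kept under puromycin (1.0 µg/ml, for 2 weeks), so the cells of every group carry a vector and went through selection. The A549 arrays were 3 with the empty vector (pBABE) and 3 with LKB1-K78I, a mutant without kinase activity. The H2122 arrays were 2 with the empty vector and 3 with LKB1-K78I. The remaining 6 arrays, 3 of each line, carried wild-type LKB1. They entered no mean of the comparison, but 1 fit covered all 17 arrays, so they count in every error and p-value, and they also show whether a difference between the lines was present with LKB1. All cells grew in medium with 5% serum, and each array measured 130 ng of total RNA. Each line comes from 1 tumour, so the arrays of a line are repeats of 1 cell line, and the line cannot be told apart from its donor, its passage history or its transduction. Nothing in the labels says whether replicates were separate transductions, so p-values here reflect no more than the scatter among these arrays, which may be technical.

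LKB1 is a master kinase that, with its partners STRAD and MO25, switches on AMPK and a family of related kinases. Its loss in lung adenocarcinoma is known to release CRTC coactivators, which act on genes with CREB sites in their promoters. Carcinoma lines also differ in how epithelial they are. Epithelial cells hold tight junctions, the splicing factor ESRP1 and the miR-200 family, while mesenchymal-like cells hold the filament protein vimentin and ZEB1, a repressor of epithelial genes that is itself a target of miR-200.

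The lines differed widely. Of 17958 genes, 7337 (40.9%) had an adjusted p under 0.05 in limma's moderated test, with 3709 (20.7%) higher and 3628 (20.2%) lower in A549. With the 11 arrays fitted alone 6383 genes passed. A difference that passed the test and was at least 2-fold was found for 1109 genes (6.18%) higher and 1087 genes (6.05%) lower in A549, and the same at 8-fold or more for 196 (1.09%) and 161 genes (0.897%). All A549 arrays were above all H2122 arrays for 2380 genes (13.3%) and below them for 2378 (13.2%). These shares over all genes are the background for the counts within gene lists below. Below, levels are log2 expression levels, differences are A549 minus H2122 on the log2 scale with their standard error, "2-fold" means passing both criteria, and ± after a mean is the SD over the 6 A549 or the 5 H2122 arrays. The SD across genes of the difference between a pair of arrays was 0.882 to 1.07 for pairs of different lines and 0.239 to 0.624 for pairs of the same line, so no pair of different lines was as alike as any pair of the same line. Calls of presence were not used here, and the lowest levels on the scale cannot be told from background, so a difference with 1 line at such a level is given as measured, not as a fold of transcript. Because these are bulk samples, fewer cells with a transcript and less transcript per cell cannot be told apart.

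A few arrays stood apart within their line. The mean level of 33 cell cycle genes, relative to the line's own mean, was low on A549 K78I replicate 2 (-0.79), on A549 pBABE replicate 1 (-0.34) and on H2122 pBABE replicate 2 (-1.35). In 3 H2122 samples title and source name disagree about the construct, and groups follow the title. STK11 itself was measured at 6.88, 7.38 and 10.52 on the A549 pBABE arrays and at 10.54, 7.14 and 10.42 on the A549 K78I arrays, so the library labelled pBABE replicate 3 and the library labelled K78I replicate 2 go against their labels. In H2122 it was 6.33 and 6.22 on the pBABE arrays and 11.27, 11.31 and 11.26 on the K78I arrays. On the H2122 LKB1 arrays it was 11.2, 11.35 and 11.26. STK11 thus followed the titles in H2122, though its level cannot tell K78I from wild-type LKB1. Where the 3 conflicting samples were grouped by source name, the STK11 difference between the lines was -1.47, against -0.47 by title. Both A549 libraries stayed within the set of 6, so an exchange between them leaves every A549 mean as it is. Over all 11 arrays STK11 averaged 8.81 ± 1.85 in A549 and 9.28 ± 2.74 in H2122, a difference of -0.47 (exact two-sided permutation test, p = 0.732, with 0.00433 the smallest p these groups allow). This pools the cells' own STK11 with the K78I transgene and ignores the construct: as labelled, the difference was 1.98 on the pBABE arrays and -1.92 on the K78I arrays, each with 1 A549 library that goes against its label.

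The mature sequences of 6 miRNAs are shown because their hairpin genes are among the small RNA genes that separate the lines, or belong to the same family. Capitals mark the seed, bases 2 to 8, and sequences are from RefSeq (GRCh38.p14).
miR-200c-3p: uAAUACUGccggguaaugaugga
miR-200b-3p: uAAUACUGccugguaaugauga
miR-429: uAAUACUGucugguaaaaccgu
miR-141-3p: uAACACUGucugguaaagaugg
miR-200a-3p: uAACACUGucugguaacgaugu
miR-192-5p: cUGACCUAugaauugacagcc
The first 3 share 1 seed, and miR-141-3p and miR-200a-3p share another. The miR-200 family lies in 2 clusters, miR-200c with miR-141 on chromosome 12 (miR-200c-3p at chr12:6963742-6963764, plus strand) and miR-200b, miR-200a and miR-429 on chromosome 1. The array's probe sets read the hairpin or its host transcript, not the mature miRNA.

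Of the 4 genes taken as markers, NTS, GABRA2, AGR2 and SPOCK1, the first 2 kept the lines apart on every array and the others did not. NTS, which encodes the gut and brain peptide neurotensin, was 9.11, 10.97 and 11.83 in A549 (lowest, median and highest) and 3.86, 3.79, 3.77, 3.97 and 3.76 in H2122, where the pBABE arrays are always given before the K78I arrays. GABRA2, a subunit of the GABA-A receptor, was 7.19, 7.86 and 9.89 in A549 and 3.89, 3.75, 3.57, 3.14 and 3.29 in H2122. All A549 arrays were above all H2122 arrays for both, with differences of 6.92 ± 0.43 (adjusted p = 3.84e-09) for NTS and 4.69 ± 0.39 (adjusted p = 1.08e-07) for GABRA2. AGR2, a disulfide isomerase of mucus-secreting cells, averaged 10.56 ± 1.23 in A549 and 9.74 ± 0.87 in H2122, and did not pass the test (0.82 ± 0.49, adjusted p = 0.211). SPOCK1, a matrix proteoglycan, averaged 4.86 ± 0.61 in A549 and 6.58 ± 0.92 in H2122 and was lower in A549 (-1.72 ± 0.44, adjusted p = 0.00512), with overlapping arrays: the highest A549 array was 6.03 and the lowest H2122 array 5.96. Without the 3 arrays low in cell cycle genes its difference was -1.11 (adjusted p = 0.0608).

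The genes with the largest differences were picked among those whose arrays do not overlap between the lines, so a gap between all arrays was a condition. The gap was several log2 units wide, as the plot of the top genes shows. Among proteins, UPK1B, a tetraspan protein of urothelial plaques, was 12.09, 12.51 and 12.74 in A549 (lowest, median and highest) and 5.34, 4.13, 4.39, 4.26 and 4.69 in H2122, a difference of 7.9 ± 0.2. TM4SF4 (7.73 ± 0.26) and TM4SF20 (7.25 ± 0.25), membrane proteins of the transmembrane 4 L6 family, were next. These A549-high genes also held HAVCR1 (7.20 ± 0.14), the kidney injury marker KIM-1, and SLFN11 (6.48 ± 0.12), a protein that blocks stalled replication forks. ALX1, a homeobox factor of the embryonic face, differed by 6.54 ± 0.16, and SLC7A7, a carrier of cationic amino acids, by 6.34 ± 0.18. At the other end, STEAP4, a metalloreductase, was 2.75, 3.19 and 3.34 in A549 and 10.39, 11.68, 10.05, 9.5 and 10.73 in H2122, a difference of -7.36 ± 0.22. S100A8, one chain of calprotectin, was 3.72, 3.8 and 4.11 in A549 and 11.12, 12.68, 10.53, 9.83 and 11.2 in H2122 (-7.23 ± 0.26). The A549 arrays of both lie within 1 log2 unit and the H2122 arrays are spread more widely. CES1, a liver carboxylesterase (-7.05 ± 0.20), UCA1, a long noncoding RNA (-6.87 ± 0.19), and TRPA1, an irritant-gated cation channel (-6.22 ± 0.17), were also low in A549. CD36, a fatty acid carrier, differed by -5.76 ± 0.19.

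**Figure D1:**
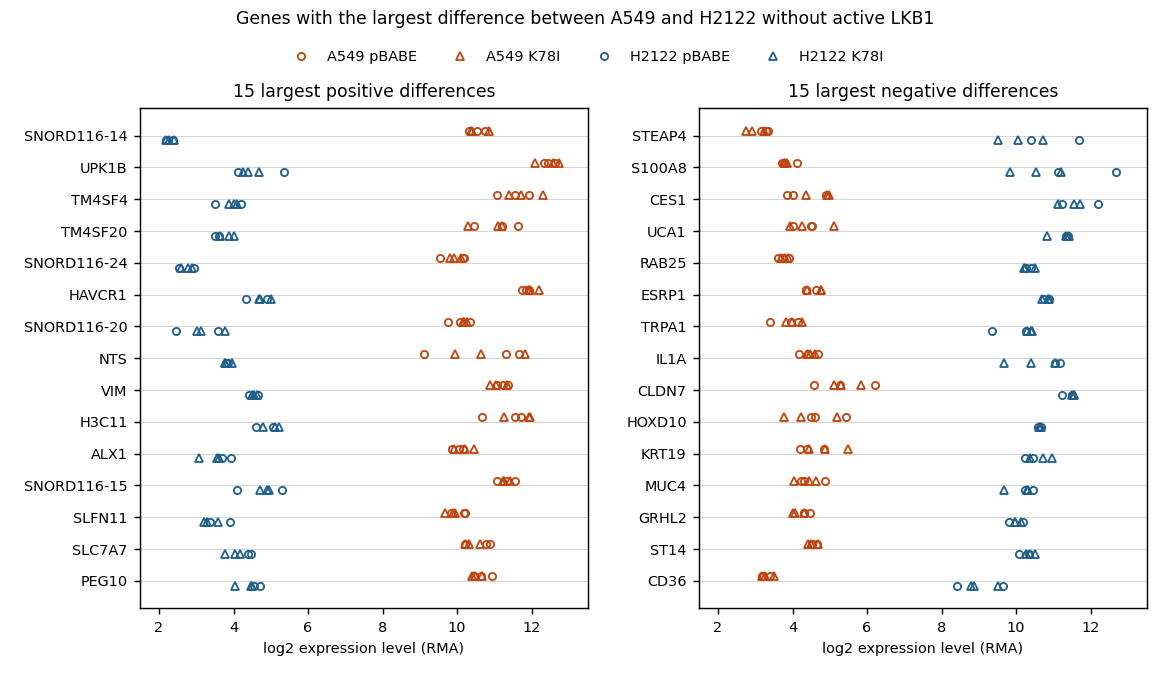
Log2 expression level (x axis) of the 15 genes with the largest positive and the 15 with the largest negative difference among genes whose arrays do not overlap; each symbol is 1 array, A549 above H2122 within a row, circles for the empty vector and triangles for K78I. Every A549 array lies clear of every H2122 array in all 30 genes because the genes were picked for this. NTS, for example, was 9.11 or more in A549 against 3.97 or less in H2122.

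Most members of the epithelial junction list, which also holds epithelial genes that are not junction components, were lower in A549. Of 25 measured, 14 were 2-fold lower and 0 2-fold higher, the median difference was -1.49 against 0.002 over all genes, and 20 passed the test below 0. RAB25, a GTPase of apical recycling, was 3.61, 3.76 and 3.91 in A549 and 10.26, 10.39, 10.25, 10.22 and 10.5 in H2122 (-6.56 ± 0.10, adjusted p = 5.52e-16). ESRP1, which drives the epithelial splice forms of many transcripts, averaged 4.54 ± 0.20 in A549 and 10.81 ± 0.09 in H2122 (-6.27 ± 0.09). The arrays of the lines did not overlap for either. CLDN7, a tight junction claudin, differed by -6.09 ± 0.25, and ST14, the membrane protease matriptase, by -5.76 ± 0.08. Its inhibitor SPINT1 differed by -5.31 ± 0.14, and MAL2, a carrier of transcytosis, by -5.40 ± 0.32. GRHL2, a transcription factor that maintains epithelial identity, averaged 4.24 ± 0.17 in A549 and 10.01 ± 0.15 in H2122 (-5.77 ± 0.09). It is counted with the lineage factors below, not among the 25. EPCAM, CLDN4, ESRP2 and PRSS8 were lower too, at -4.18, -3.88, -3.75 and -3.53. Of the other members 4 did not pass the test and 1 passed it above 0. CDH1, the E-cadherin that marks epithelium most often, was among those that did not pass. It averaged 10.82 ± 0.38 in A549 and 10.36 ± 0.12 in H2122 (0.46 ± 0.22, adjusted p = 0.121, or 0.0465 when A549 LKB1 replicate 2 was left out of the fit). Of 20 measured claudins, a family looked up after its values were seen, 3 were 2-fold lower and 0 2-fold higher, with a median of -0.1.

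Keratins split. KRT8 and KRT18, which pair in simple epithelia, were higher in A549 by 1.14 ± 0.11 and 1.23 ± 0.12, at means of 13.03 ± 0.11 and 12.89 ± 0.13 against 11.9 ± 0.19 and 11.66 ± 0.25 in H2122. KRT19, another simple keratin, averaged 4.70 ± 0.46 in A549 and 10.54 ± 0.29 in H2122 (-5.84 ± 0.20). KRT7 averaged 11.75 ± 0.21 in A549 and 11.76 ± 0.16 in H2122 and did not pass the test (-0.01 ± 0.12, adjusted p = 0.954). Both lines measured high for keratins 7, 8 and 18, the keratins of simple lung epithelium.

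Of 27 mesenchymal genes 9 were 2-fold higher and 2 were 2-fold lower in A549, with 13 not passing the test and a median of 0.23. VIM, the intermediate filament vimentin, was 10.89, 11.15 and 11.37 in A549 and 4.66, 4.42, 4.62, 4.54 and 4.49 in H2122 (6.61 ± 0.09, adjusted p = 3.05e-16). ZEB1, the repressor of epithelial genes, was 7.57, 7.67 and 7.99 in A549 and 4.64, 4.27, 4.35, 4.5 and 4.62 in H2122 (3.24 ± 0.10). No array of either line fell in the other's range for the 2 genes. AXL, a receptor tyrosine kinase, and CDH11, a cadherin of mesenchyme, were higher by 5.06 ± 0.22 and 4.17 ± 0.18, and FN1, fibronectin, by 2.79 ± 0.37, or by 1.59 (adjusted p = 0.188) where the 3 conflicting H2122 samples were grouped by source name. The members lower in A549 were SPOCK1, SNAI2 and CDH2. CDH2, the N-cadherin of mesenchymal and neural cells, averaged 4.77 ± 0.19 in A549 and 5.49 ± 0.66 in H2122 (-0.72 ± 0.16, adjusted p = 0.00178), with overlapping arrays, and did not pass where the 3 conflicting samples were grouped by source name (-1.51, adjusted p = 0.0552). SNAI2, the repressor Slug, which is also expressed by basal epithelial cells, averaged 5.07 ± 0.27 in A549 and 9.77 ± 1.24 in H2122 (-4.71 ± 0.49), lowest in H2122 on pBABE replicate 2 (7.7). ZEB2, ZEB1's paralog, averaged 3.84 ± 0.21 in A549 and 3.71 ± 0.15 in H2122 (adjusted p = 0.347).

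**Figure D2:**
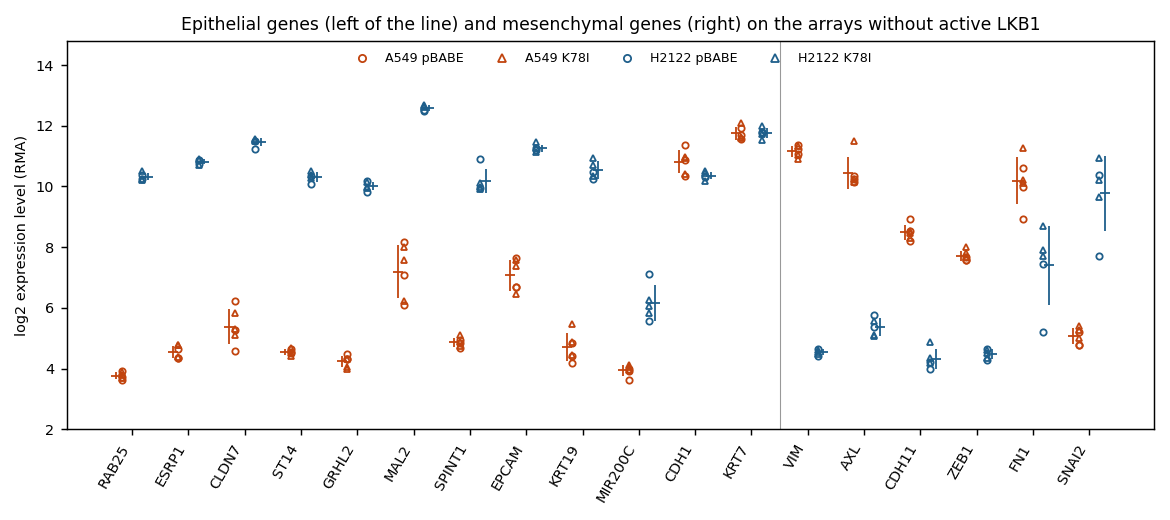
Log2 expression level (y axis) on each array of 12 epithelial genes, to the left of the grey line, and 6 mesenchymal genes, to the right; A549 stands left of H2122 in each pair, circles are empty vector and triangles K78I, and the bars are mean ± SD over 6 and 5 arrays. CDH1 and KRT7 lie close together in both lines while RAB25, ESRP1 and VIM are separated by over 6 log2 units.

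The miR-200c cluster followed the epithelial genes. MIR200C, the hairpin gene of miR-200c, averaged 3.94 ± 0.17 in A549 and 6.16 ± 0.59 in H2122 (-2.23 ± 0.20, adjusted p = 3.37e-07), and its neighbour MIR141 3.58 ± 0.28 in A549 and 4.90 ± 0.38 in H2122 (-1.32 ± 0.14). The arrays did not overlap for either gene. The other cluster, with the same seeds, did not pass: MIR200B, MIR200A and MIR429 differed by -0.19, 0.04 and -0.05 (adjusted p = 0.105, 0.751 and 0.764). MIR200B had an adjusted p of 0.0414 without H2122 pBABE replicate 2 and 0.0349 without the 3 conflicting H2122 samples. All 3 stood at a mean of 4.63 or less in both lines, near the lower end of the scale, and so did MIR200C and MIR141 in A549. MIR192, a hepatic and gut miRNA with an unrelated seed, ran the other way, with 6.82 ± 0.52 in A549 and 4.37 ± 0.39 in H2122 (2.45 ± 0.27). Of 180 miRNA hairpin genes 2 were 2-fold higher and 6 were 2-fold lower in A549, smaller shares than the 6.18% and 6.05% of all genes. The miRNA genes were looked up after their values were seen.

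The promoters of RAB25 and CLDN3, both epithelial genes lower in A549 (CLDN3 at -1.74), are shown because each holds CAGGTG or its reverse complement. This is the E-box to which ZEB1 and the Snail factors are known to bind. The window runs from 250 bases before to 50 after the gene's start, in the direction of the gene, and capitals mark CAGGTG or its reverse complement CACCTG.
RAB25 (chr1:156060910-156061209, plus strand): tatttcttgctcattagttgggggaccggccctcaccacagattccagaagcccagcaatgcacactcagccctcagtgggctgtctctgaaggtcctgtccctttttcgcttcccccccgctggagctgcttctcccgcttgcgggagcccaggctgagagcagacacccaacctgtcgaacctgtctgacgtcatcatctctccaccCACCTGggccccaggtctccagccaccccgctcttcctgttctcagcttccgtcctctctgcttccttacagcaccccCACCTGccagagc
CLDN3 (chr7:73770221-73770520, minus strand): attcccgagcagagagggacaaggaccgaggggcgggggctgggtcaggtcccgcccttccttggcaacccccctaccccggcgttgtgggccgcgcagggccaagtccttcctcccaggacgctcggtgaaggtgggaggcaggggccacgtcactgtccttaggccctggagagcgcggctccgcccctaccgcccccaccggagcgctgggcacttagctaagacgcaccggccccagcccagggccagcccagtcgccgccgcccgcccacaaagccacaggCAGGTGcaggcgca
The motif stood in 3 of the 7 epithelial genes 2-fold lower in A549 that have an entry in the promoter table. It stood in 26.6% of the promoters of all genes 2-fold lower in A549, in 17.8% of those 2-fold higher and in 19.4% of all 13864 promoters of tested genes. The letters are a description, not evidence of binding, and the motif was chosen with the values known.

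Secreted proteins of liver and endoderm were more often higher in A549. Of 26, 10 were 2-fold higher, 1 was 2-fold lower and 13 did not pass. APOH, a phospholipid-binding plasma protein, averaged 8.37 ± 0.43 in A549 and 3.18 ± 0.39 in H2122 (5.19 ± 0.29, adjusted p = 1.05e-09). SERPINA1, alpha-1-antitrypsin, averaged 8.82 ± 0.31 in A549 and 4.66 ± 1.09 in H2122 (4.15 ± 0.29), with H2122 pBABE replicate 2 highest among the H2122 arrays at 6.51. The arrays of the lines did not overlap for either gene. VTN, vitronectin, was higher by 3.84 ± 0.34, FGL1, a hepatokine, by 3.42 ± 0.36 and ITIH2, a hyaluronan-binding inhibitor chain, by 2.95. FGA, the fibrinogen alpha chain, was higher by 2.82 ± 0.59 but varied within both lines, with 8.33 ± 1.56 in A549 and 5.51 ± 1.52 in H2122, and its arrays overlapped. ALB and AFP, the defining products of hepatocytes, stood at 3.70 ± 0.15 and 3.0 ± 0.13 in A549 and at 3.54 ± 0.20 and 2.94 ± 0.17 in H2122 and did not pass, though ALB had an adjusted p of 0.0383 without H2122 pBABE replicate 1. The members lower in A549 were C3, complement component 3 (-1.39), and APOA2, an apolipoprotein of high-density lipoprotein (-0.86 ± 0.14).

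Lineage transcription factors followed no single direction. Of 29, 2 were 2-fold higher (6.9%) and 6 were 2-fold lower (20.7%) in A549, against 6.18% and 6.05% of all genes. FOXA2 and GATA4, factors of foregut endoderm, were higher by 2.47 ± 0.11 and 1.55 ± 0.13. GRHL2, described above, had the largest difference of the list (-5.77). SOX2, a factor of airway and stem cells, averaged 4.76 ± 0.80 in A549 and 8.08 ± 0.25 in H2122 (-3.32 ± 0.27). EHF, an epithelial ETS factor, was lower (-2.11 ± 0.31) and so was FOXA1 (-1.48 ± 0.24). NKX2-1, the lung lineage factor, averaged 4.45 ± 0.25 in A549 and 5.54 ± 0.47 in H2122 (-1.09 ± 0.16), a low level in both. Its known targets NAPSA and SFTPB, markers of alveolar type II cells, measured 4.46 ± 0.18 and 4.31 ± 0.22 in A549 and 4.36 ± 0.15 and 4.43 ± 0.12 in H2122 and did not pass (adjusted p = 0.527 and 0.476). These 4 means were 4.46 or less, near the lower end of the scale. Of 23 alveolar genes 17 did not pass the test between the lines, while 40.9% of all genes passed.

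More mucin and goblet cell genes were lower than higher in A549: of 33, 16 passed the test below 0 and 4 above it, with 12 2-fold lower and 2 2-fold higher. MUC4, a membrane mucin, averaged 4.42 ± 0.30 in A549 and 10.2 ± 0.31 in H2122 (-5.78 ± 0.15). MUC1 (5.30 ± 0.14 in A549, 9.70 ± 0.60 in H2122), MUC20 (-4.27 ± 0.18) and the chloride channel regulator CLCA2 (-4.98 ± 0.24) were lower likewise. The 2 members 2-fold higher were GCNT3, a mucin glycosyltransferase (2.89), and LGALS4, a gut galectin (1.44). Squamous and basal genes had 7 of 19 members 2-fold lower and 1 2-fold higher. SERPINB5, the serpin maspin, was lower (-5.71 ± 0.14) and TRIM29, a ubiquitin ligase of basal cells, was lower as well (-4.94 ± 0.20).

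The calgranulins stood out among the S100 genes, of which 7 of 19 were 2-fold lower and 2 were 2-fold higher in A549. S100A9, the partner of S100A8 in calprotectin, averaged 4.78 ± 0.25 in A549 and 10.12 ± 0.97 in H2122 (-5.34 ± 0.26). Both were highest in H2122 on pBABE replicate 2, at 12.68 for S100A8 and 11.67 for S100A9.

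Among cytokine genes and sensors of foreign DNA, more were lower than higher in A549. Of 35 NF-kB, cytokine and chemokine genes 9 were 2-fold lower and 4 were 2-fold higher. IL1A, the interleukin 1 alpha precursor, was 4.18, 4.45 and 4.68 in A549 and 11.05, 11.18, 11.05, 9.68 and 10.41 in H2122 (-6.21 ± 0.19). IL1B and IL6 were lower, with differences of -3.13 ± 0.30 and -3.11 ± 0.24. The chemokines CCL2, which draws monocytes, and CXCL5, which draws neutrophils, ran the other way at 3.96 ± 0.54 and 3.84 ± 0.22. In the nucleic acid sensing list 5 of 15 were 2-fold lower and 1 was 2-fold higher. IFI16, a sensor of nuclear DNA, averaged 4.71 ± 0.24 in A549 and 10.1 ± 0.26 in H2122 (-5.40 ± 0.13), and STING1, the adaptor of the pathway, 4.75 ± 0.18 in A549 and 7.31 ± 0.30 in H2122 (-2.56 ± 0.13). CGAS, the cytosolic DNA sensor that feeds STING, was the member 2-fold higher, with 6.85 ± 0.29 in A549 and 3.82 ± 0.13 in H2122 (3.03 ± 0.14). IFIH1, the RNA sensor MDA5, was higher by 0.70 ± 0.14.

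In MHC class I antigen presentation 13 of 19 genes passed the test below 0 and 1 above it, against 20.2% and 20.7% of all genes. Only 4 were 2-fold lower (21.1%, against 6.05% of all genes). HLA-C, a class I heavy chain, differed by -1.37 ± 0.10, ERAP2, a peptide-trimming protease, by -2.12 ± 0.14, and B2M, the light chain, by -0.84 ± 0.12. TAP1, a peptide transporter subunit, averaged 8.02 ± 0.09 in A549 and 8.05 ± 0.11 in H2122 (adjusted p = 0.804). Class I genes are highly polymorphic and near-identical, so their probe sets may read each other's transcripts.

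Targets of p53 had 8 of 26 members 2-fold higher and 0 2-fold lower in A549, with a median of 0.56. EDA2R, a TNF receptor relative, averaged 9.05 ± 0.45 in A549 and 4.66 ± 0.29 in H2122 (4.39 ± 0.18), and DDB2, a DNA damage binding protein, 9.31 ± 0.14 in A549 and 7.07 ± 0.42 in H2122 (2.24 ± 0.15). CDKN1A, the p21 inhibitor of cyclin-dependent kinases and the best known target, was lower in A549 (-0.83 ± 0.25, adjusted p = 0.015) with overlapping arrays. It did not pass with the 11 arrays fitted alone (adjusted p = 0.0524) or without the 3 conflicting H2122 samples (-0.87, adjusted p = 0.0547). Without the 3 arrays low in cell cycle genes, an alternative added after seeing the data, 5 of the targets were 2-fold higher and 1 was 2-fold lower. Of 36 targets of NRF2, the antioxidant factor, 21 did not pass, near the share over all genes, of which 40.9% passed. Several targets were high in both lines. At 2-fold 8.33% of them were higher and 13.9% lower in A549, against 6.18% and 6.05% of all genes. NQO1, a quinone reductase, averaged 12.56 ± 0.11 in A549 and 12.4 ± 0.06 in H2122 (adjusted p = 0.0935, or 0.0196 without A549 K78I replicate 2), and SLC7A11, a cystine carrier, 11.63 ± 0.40 in A549 and 11.89 ± 0.11 in H2122 (adjusted p = 0.217, or 0.0211 without A549 K78I replicate 3). The glutathione transferases GSTM1 and GSTM3 were lower in A549, with differences of -4.37 ± 0.10 and -4.35 ± 0.08. Their sequences are close, so a signal from 1 gene may be read by the other's probe set.

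Metabolic genes also separated the lines. Sterol and fatty acid synthesis had 9 of 21 members 2-fold lower and 0 2-fold higher in A549, with a median of -0.92 and 16 passing below 0. LSS, lanosterol synthase, differed by -1.90 ± 0.22, ACSL1, an acyl-CoA ligase, by -1.70 ± 0.10, and IDI1, an isoprenoid isomerase, by -1.39 ± 0.18. HMGCS1, which opens the pathway, did not pass (0.38 ± 0.23, adjusted p = 0.215). GLUL, glutamine synthetase, averaged 6.21 ± 0.20 in A549 and 10.29 ± 0.16 in H2122 (-4.08 ± 0.10), and ASS1, a urea cycle enzyme, 8.23 ± 0.64 in A549 and 10.71 ± 0.54 in H2122 (-2.49 ± 0.30). CPS1, the enzyme that opens the urea cycle, did not differ past the test (10.69 ± 0.78 in A549, 11.48 ± 0.71 in H2122, adjusted p = 0.13), though it was lower in A549 without A549 K78I replicate 2 (-0.99, adjusted p = 0.0402). Hypoxia and glycolysis genes showed no common direction. Of 30, 4 were 2-fold higher and 7 were 2-fold lower, 14 did not pass, and the median was 0.03. In glycolysis the glucose transporter SLC2A3 was higher by 3.81 ± 0.36, and SLC2A1, the common transporter, was lower (-1.38 ± 0.12). The hexokinases HK2 and HK1 were lower, with differences of -3.11 ± 0.12 and -2.57 ± 0.11. CYP24A1, which inactivates vitamin D, averaged 12.78 ± 0.14 in A549 and 8.71 ± 0.36 in H2122 (4.07 ± 0.12), and ALDH1A1, a retinal dehydrogenase, was higher by 2.71 ± 0.13.

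Of 23 LKB1, AMPK and related genes 4 were 2-fold higher (17.4%) and 0 were 2-fold lower in A549, and the median was 0.01. NUAK2, an AMPK-related kinase, averaged 9.14 ± 0.89 in A549 and 6.32 ± 0.34 in H2122 (2.82 ± 0.30), and the pseudokinases STRADA and STRADB, LKB1's partners, were higher by 1.04 ± 0.09 and 1.09 ± 0.15. Among targets of CREB and its CRTC coactivators 9 of 29 were 2-fold higher and 2 were 2-fold lower, with a median of 0.56. Examples were INSL4, a relaxin family hormone (2.58 ± 0.41), and the cyclic nucleotide phosphodiesterases PDE10A (2.45 ± 0.24) and PDE4B (1.86 ± 0.12). On the LKB1 arrays the median of the same targets was -0.01. Without the 3 arrays low in cell cycle genes 6 of the targets were 2-fold higher and 4 were 2-fold lower.

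Signalling and hormone genes differed gene by gene. Of 31 MAPK feedback and EGF ligand genes 7 were 2-fold lower (22.6%) and 3 were 2-fold higher (9.68%) in A549. EREG, an EGF receptor ligand, was higher by 3.98 ± 0.37, while 2 other ligands, EPGN and TGFA, were lower, with differences of -4.40 ± 0.33 and -2.89 ± 0.15. EGFR itself averaged 9.49 ± 0.36 in A549 and 9.45 ± 0.28 in H2122 (adjusted p = 0.855). Of 26 neuropeptide and hormone genes 7 were 2-fold higher and 3 were 2-fold lower, and the neuropeptide GAL, galanin, was the counterpart of NTS, with 4.61 ± 0.28 in A549 and 9.99 ± 0.44 in H2122 (-5.38 ± 0.25). Of 25 ion channel receptor genes 3 were 2-fold higher (12.0%) and 1 was 2-fold lower (4.0%). The subunit GABRA5 was higher by 3.15 ± 0.25, and the nicotinic subunit CHRNA9 was lower (-2.69 ± 0.20). WNT5A, a ligand of noncanonical WNT signalling, was lower (-4.75 ± 0.18), BMP4 was higher by 2.46 ± 0.32 and BMP2 was lower (-2.94 ± 0.30), among 10 2-fold higher and 6 2-fold lower of 39 genes.

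Of 27 HOX genes, which set position along the body axis, 8 were 2-fold higher and 4 were 2-fold lower. HOXD10 averaged 4.62 ± 0.61 in A549 and 10.63 ± 0.03 in H2122 (-6.01 ± 0.21) and its neighbour HOXD11 4.93 ± 0.10 in A549 and 8.45 ± 0.24 in H2122 (-3.52 ± 0.10). Genes of the HOXB cluster ran the other way, such as HOXB9 (2.15 ± 0.16) and HOXB5 (2.1 ± 0.19). Among 24 subunits of the SWI/SNF chromatin remodeller 1 was 2-fold lower and 1 was 2-fold higher (4.17% each), against 6.05% and 6.18% of all genes. SMARCA4, the BRG1 ATPase, was 6.87, 7.21 and 7.37 in A549 and 9.24, 9.29, 9.39, 9.33 and 9.4 in H2122 (-2.15 ± 0.10, adjusted p = 9.7e-11), with no overlap. SMARCA2, the alternative ATPase, averaged 7.01 ± 0.34 in A549 and 7.42 ± 0.32 in H2122 (adjusted p = 0.062, or 0.0128 without H2122 pBABE replicate 1, 0.0361 without A549 K78I replicate 1 and 0.0393 without A549 K78I replicate 3), and SMARCD1, an accessory subunit, was higher by 1.12 ± 0.08.

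Markers of other cell types were mostly low in both lines. Of 15 leukocyte genes 13 did not pass, and PTPRC, the common leukocyte antigen CD45, stood at 3.09 ± 0.11 in A549 and 2.97 ± 0.18 in H2122. ITGAM, an integrin of myeloid cells, was the one 2-fold higher (1.24 ± 0.16). Of 17 fibroblast and endothelial markers PECAM1, an endothelial adhesion protein, was the one that passed in the main fit, and it was lower in A549 (-1.04 ± 0.15). The fibroblast marker COL1A1 averaged 6.49 ± 0.83 in A549 and 7.28 ± 0.34 in H2122 (-0.79 ± 0.32, adjusted p = 0.0629). It passed, lower in A549, without A549 pBABE replicate 3 (-1.05, adjusted p = 0.00203). Without the 2 A549 arrays with STK11 against the label it also passed (-0.9, adjusted p = 0.000696). Of 14 housekeeping and 29 ribosomal protein genes 0 reached 2-fold. Of 33 cell cycle genes 2 were 2-fold higher (6.06%, against 6.18% of all genes) and 0 lower in A549. Their median difference was 0.83 on the pBABE arrays, where H2122 replicate 2 was low, and -0.20 on the K78I arrays. The part of that array in the 0.83 was not tested.

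**Figure D3:**
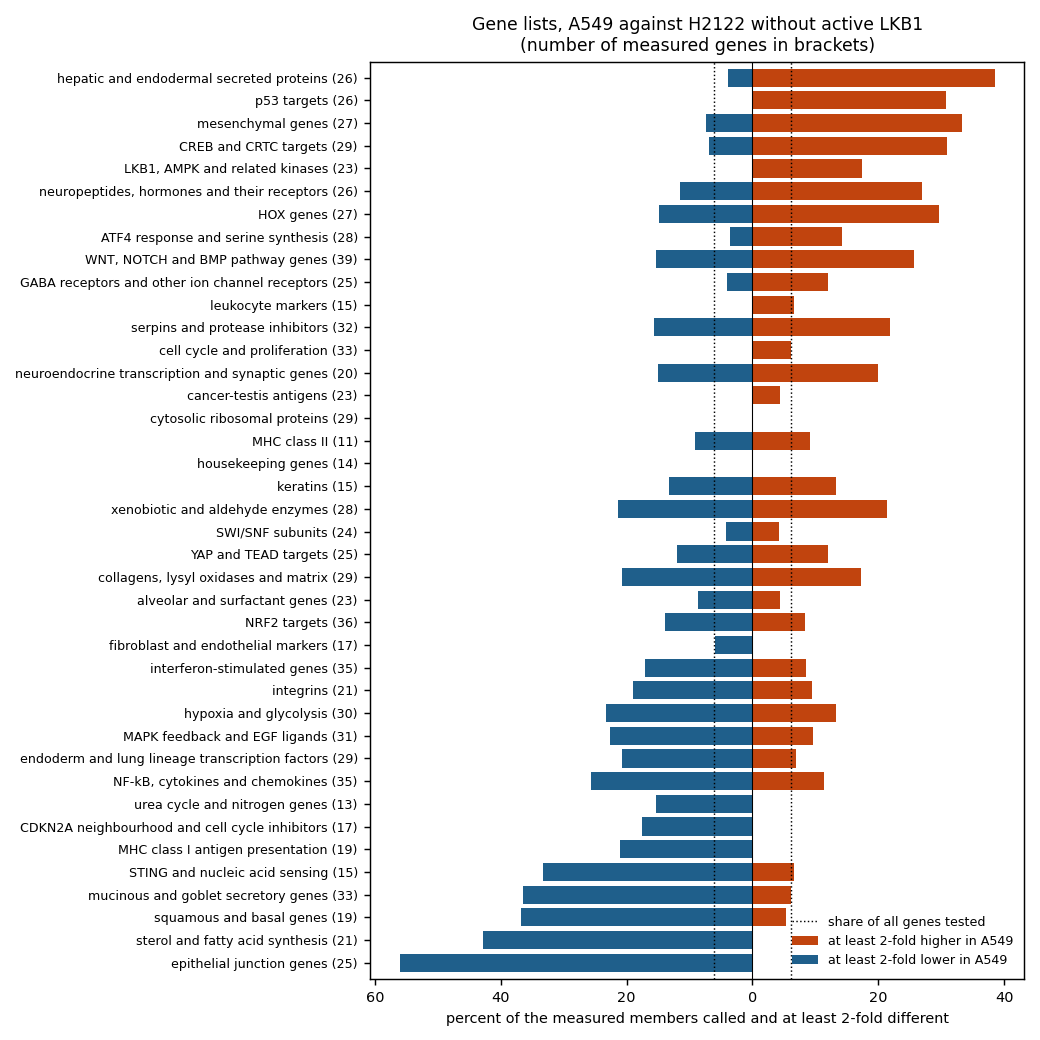
Share of each list's measured genes (number in brackets) that were at least 2-fold higher in A549, to the right, or at least 2-fold lower, to the left, in percent; dotted lines mark the shares over all genes, 6.18% and 6.05%. Epithelial junction genes reach farthest to the left (56.0%) and liver and endoderm secreted proteins farthest to the right (38.5%).

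Some runs of neighbouring genes differed mostly in the same direction. The block of small nucleolar RNAs SNORD116 on chromosome 15, an imprinted locus expressed from the paternal copy, had 19 of 21 measured copies 2-fold higher in A549 and a median of 3.17. SNORD116-14 was 10.33, 10.46 and 10.85 in A549 and 2.37, 2.18, 2.18, 2.4 and 2.26 in H2122, the largest difference among all genes whose arrays do not overlap (8.26 ± 0.13). SNORD116-10 did not pass (3.53 ± 0.17 in A549, 3.38 ± 0.05 in H2122). The copies are nearly identical, so their probe sets may read each other's transcripts, and single copies are uncertain. The neighbouring block SNORD115 had 0 of 23 copies 2-fold different, and the locus genes UBE3A, NDN and MAGEL2 did not pass (adjusted p = 0.138, 0.681 and 0.993). On chromosome 7, the adjacent imprinted genes PEG10, derived from a retrotransposon, and SGCE, a sarcoglycan, were both higher, by 6.13 ± 0.11 and 4.82 ± 0.16.

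Of 60 replication-dependent histone genes 16 were 2-fold higher and 1 was 2-fold lower in A549. H3C11 led with 11.51 ± 0.49 in A549 and 4.95 ± 0.26 in H2122 (6.55 ± 0.18), and near-identical copies make single genes uncertain here too. In windows of 15 neighbouring measured genes, the 3 highest medians lay at SNORD116 (3.78), from GJC1 to LRRC37A4P on chromosome 17 (1.09) and at the histone genes of chromosome 6 (1.05). The chromosome 17 window held GJC1, a connexin (3.41 ± 0.24), and HEXIM1, an inhibitor of the elongation kinase P-TEFb (1.5 ± 0.15). The 3 lowest lay from DCST1 to CLK2 on chromosome 1 (-1.11), from ATP5PO to MORC3 on chromosome 21 (-0.88) and at the S100 genes of chromosome 1 (-0.82). The first held ADAM15, a metalloprotease (-2.19 ± 0.09), the ephrin EFNA1 (-2.21 ± 0.23) and MUC1. The second held ATP5PO, a subunit of ATP synthase (-1.52 ± 0.09). The window at the S100 genes had 10 genes lower and 5 higher in A549. All these windows were picked as the extremes, so a shared direction within them was selected for.

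The shares also differed between chromosomes. On chromosome 18, 13.9% of 259 genes were 2-fold higher and 3.86% were 2-fold lower in A549, against 6.18% and 6.05% of all genes. Chromosome 21 ran the other way, with 2.98% of 235 genes 2-fold higher and 13.2% 2-fold lower. Median differences of whole chromosomes stayed between -0.16 for chromosome 9 and 0.17 for chromosomes 17 and 18. DNA copy number was not analysed here.

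**Figure D4:**
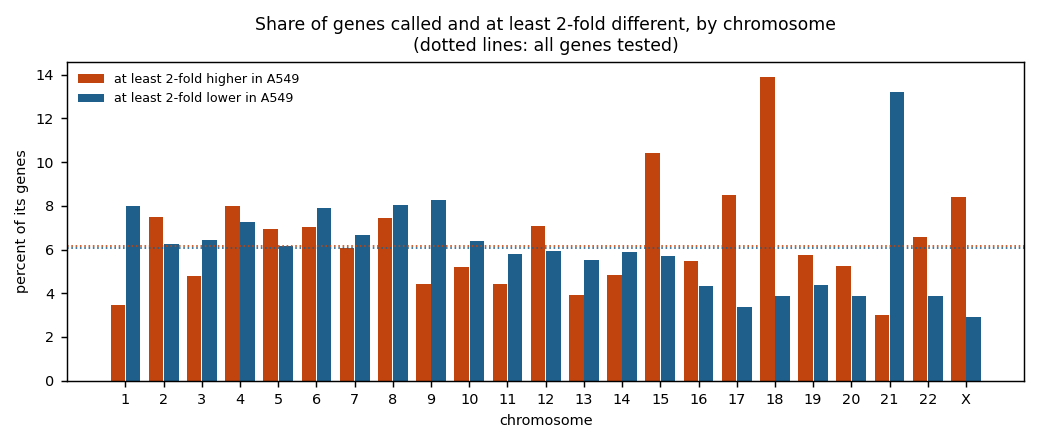
Percent of each chromosome's measured genes (y axis) that were at least 2-fold higher in A549 (left bar) or at least 2-fold lower (right bar); the dotted lines are the shares over all genes, 6.18% and 6.05%. Chromosome 18 stands highest for genes higher in A549 (13.9%) and chromosome 21 for genes lower in A549 (13.2%).

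The difference was seen with either control construct, as labelled. STK11 goes against the label in 1 A549 library of each construct, so the A549 side of this comparison does not separate the constructs cleanly. On the pBABE arrays 4644 genes (25.9%) were called, and on the K78I arrays 5899 (32.8%), or 4843 and 5344 without these 2 libraries. Of the 1100 genes (6.13%) 2-fold higher in A549 with the empty vector, 868 (78.9%) were 2-fold higher with K78I, which is 72.5% of that list's 1198 (6.67%). For genes 2-fold lower, 1063 (5.92%) with the empty vector and 1174 (6.54%) with K78I, the overlap was 863, or 81.2% and 73.5%. The difference between these 2 line differences was called for 0 genes (0.0%), with 868 (4.83%) at an unadjusted p under 0.05 in limma. Without H2122 pBABE replicate 1, which leaves 1 array in that group, 603 genes were called.

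Most of the line difference was also present on the arrays with wild-type LKB1. On the 6 LKB1 arrays 5899 genes (32.8%) were called, and of the 2196 genes (12.2%) that were 2-fold different without active LKB1, 2133 (97.1%) had the same sign there, as did 13931 (77.6%) of all genes. Of the 1109 genes 2-fold higher without LKB1, 779 (70.2%) were 2-fold higher with it, or 66.2% of that list's 1177 (6.55% of all genes). Of the 1087 genes 2-fold lower, 799 (73.5%) were 2-fold lower, or 70.1% of 1139 (6.34% of all genes). VIM differed by 6.61 without and 6.99 with LKB1, RAB25 by -6.56 and -6.25, and UPK1B by 7.90 and 7.87.

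The line difference itself changed with LKB1 for 617 genes (3.44%), 279 upward (1.55%) and 338 downward (1.88%), and among the 2196 genes for 256 (11.7%). For 182 of these 256 the change ran against the sign of the difference without LKB1, so the difference was smaller or reversed with LKB1. The count of 617 was 301 without A549 LKB1 replicate 3, 392 without A549 LKB1 replicate 2, 351 without H2122 LKB1 replicate 1 and 337 without H2122 LKB1 replicate 3. It was 170 where the 3 conflicting H2122 samples were grouped by source name, 208 without them and 2044 with array weights. NTS was 6.49, 4.78 and 5.63 on the A549 LKB1 arrays and 4.08, 3.75 and 3.47 on the H2122 LKB1 arrays, so its line difference was 1.87 there and smaller by 5.05 (change -5.05 ± 0.72, adjusted p = 0.00134). GABRA2 kept a line difference of only 0.56 (change -4.13 ± 0.65, adjusted p = 0.00261). AGR2, for which the lines did not differ past the test without LKB1, was lower in A549 with it, at 5.52 ± 0.67 in A549 and 9.01 ± 0.03 in H2122 (change -4.31 ± 0.82, adjusted p = 0.00926). The change was called for 3 of the 4 marker genes; for SPOCK1 it was not (adjusted p = 0.529).

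The change ran the other way for SPARC. SPARC, a matricellular glycoprotein, averaged 4.18 ± 0.26 in A549 and 3.95 ± 0.12 in H2122 without active LKB1. With LKB1 it averaged 10.33 ± 0.50 in A549 and 3.88 ± 0.19 in H2122 (change 6.22 ± 0.27, adjusted p = 1.22e-08). COL1A1, a chain of type I collagen, and ITGA11, a collagen-binding integrin, changed by 4.08 ± 0.54 and 3.95 ± 0.22. FST, the activin antagonist follistatin, moved the other way, with 4.17 ± 0.22 in A549 and 9.86 ± 1.12 in H2122 with LKB1 against 6.19 ± 0.52 in A549 and 6.52 ± 1.1 in H2122 without it (change -5.36 ± 0.67, or -2.30 with an adjusted p of 0.492 where H2122 samples were grouped by source name). CNTN1, a neural adhesion protein, was higher in A549 without LKB1 (2.42 ± 0.24) and lower with it (-2.32 ± 0.32). VSIG1, a junctional adhesion protein of the stomach, did likewise, at 2.0 and -2.45, but its change was not called where H2122 samples were grouped by source name (-3.16, adjusted p = 0.0563).

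**Figure D5:**
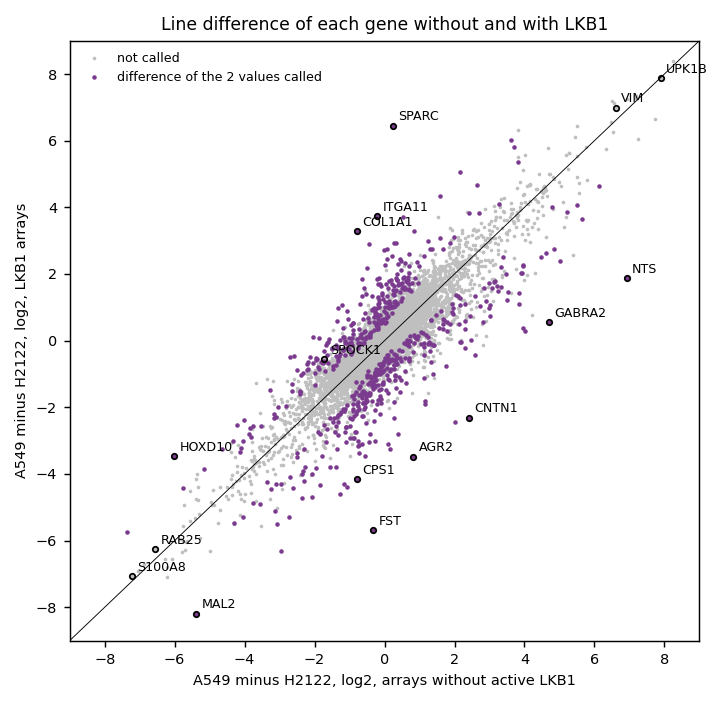
Line difference of each gene (A549 minus H2122, log2) on the 11 arrays without active LKB1 (x axis) and on the 6 LKB1 arrays (y axis), with the diagonal of equal values; purple points are the 617 genes whose 2 values differed in the test. UPK1B, VIM and RAB25 lie near the diagonal, NTS, GABRA2 and AGR2 below it, and SPARC above it.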

How the data were processed

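RNA of 17 samples was measured on Affymetrix whole-transcript arrays, 1 array per sample. Deposited are log2 levels of probe sets. Per the submitters' processing notes, the authors used RMA and Affymetrix Expression Console 1.1. RMA corrects background, forces arrays to like distributions and summarises probes, so a shift of most genes 1 way cannot be seen. Array medians ran from 5.62 to 5.73. Precision is limited by how many arrays there are. Of 33297 probe sets 19181 had 1 gene symbol, 2055 several and 12061 none listed; the probe set with the highest mean was kept for the 895 genes with more than 1, leaving 17958 genes. No detection calls were used.

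Groups came from the titles. limma 3.58.1 in R 4.3.3 fitted 6 group means over 17 arrays (11 residual degrees of freedom, 3.8 from the prior); Benjamini-Hochberg adjustment covered 17958 genes with a threshold of 0.05, and 2-fold means also a log2 difference of at least 1. Each array of a line weighed the same. STK11 also had an exact permutation test (scipy 1.17.1). The fitting was tested on simulated data. Figures were drawn in Python 3.11.15 with matplotlib 3.10.9.

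Genes named were STK11, the 4 markers, the 15 largest differences in each direction without overlap, up to 5 called 2-fold members of each of 40 gene lists, members that did not pass, the 5 largest changes with LKB1 in each direction, and genes of the extreme windows. The members and lists were chosen with earlier results of these data known. Genes outside this rule, among them EPCAM, CLDN3, CLDN4, ESRP2, PRSS8, FGA, FOXA1, NKX2-1, CDH2, APOA2, IFIH1, B2M, SLC2A1, C3, GCNT3, LGALS4 and the small RNA, histone and imprinted genes, were chosen after their values were seen. Alternatives tried were grouping by source name, the replicate block, omission of conflicting samples or single arrays, a filter on dim genes, 2 normalizations, other uses of probe sets, other priors, array weights, fewer arrays, pooled or equally weighted constructs, and limma's treat. Of the 6 miRNAs shown, all 6 matched the sequence table. The authors' genome build is not given in these sources. Promoter and miRNA coordinates are those of RefSeq's GRCh38.p14.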

Additional observations from a re-analysis of the deposited data

Results flagged for a closer look

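Of 308 pairs of a named gene and a line, 26 had 1 array whose gap to the nearest other array took up most of the line's range (Dixon's test, for which chance alone sets apart about 1 in 20). A549 K78I replicate 1 was set apart at a log2 level of 4.76 for SFTPB. A549 K78I replicate 2 was set apart at a log2 level of 11.5 for AXL, 10.21 for EGFR, 4.67 for ERAP2, 8.9 for HEXIM1, 10.06 for HMGCS1, 5.88 for HOXB5, 12.35 for NQO1, 9.8 for SMARCD1, 9.47 for STRADB and 4.27 for ZEB2. A549 pBABE replicate 3 was set apart at a log2 level of 5.82 for GLUL, 3.61 for MIR200C, 4.11 for S100A8 and 6.03 for SPOCK1. H2122 K78I replicate 2 was set apart at a log2 level of 7.01 for GCNT3 and 10.83 for UCA1. H2122 pBABE replicate 1 was set apart at a log2 level of 3.88 for ALB and 11.23 for CLDN7. H2122 pBABE replicate 2 was set apart at a log2 level of 5.03 for FGL1, 8.89 for GSTM1, 7.85 for HMGCS1, 5.56 for MIR141, 12.08 for SLC7A11, 10.9 for SPINT1 and 9.34 for TRPA1.

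For 32 named genes the line difference itself changed with LKB1, by the interaction term of the limma fit. The line difference on the LKB1 arrays minus that without active LKB1 was positive for SPARC (6.22), COL1A1 (4.08), ITGA11 (3.95), HOXD10 (2.55), CHRNA9 (2.20), STEAP4 (1.60), CD36 (1.33), ALDH1A1 (1.11), CLDN4 (1.09), HOXD11 (0.97), SLC2A1 (0.93), HK2 (0.83) and ACSL1 (0.78). It was negative for FST (-5.36), NTS (-5.05), CNTN1 (-4.74), VSIG1 (-4.45), AGR2 (-4.31), GABRA2 (-4.13), CPS1 (-3.37), INSL4 (-2.99), MAL2 (-2.80), VTN (-2.76), CXCL5 (-2.42), CDH2 (-2.41), C3 (-2.41), NUAK2 (-2.26), IL1B (-1.99), CDH1 (-1.63), PEG10 (-1.48), PDE4B (-1.38) and TAP1 (-0.63).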

How the results depend on the processing

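Replicate numbers did not pair the arrays: deviations of same-numbered arrays of the lines correlated between -0.38 and 0.09. With the replicate block 7181 genes were called without active LKB1, and MAGEL2 changed sign (0.01). Leaving out 1 array at a time gave 6677 to 7501 genes called, 1074 to 1172 2-fold higher and 1062 to 1115 2-fold lower, 3612 to 5354 on pBABE arrays, 4856 to 6290 on K78I arrays, 4788 to 6489 on LKB1 arrays, 301 to 725 for the change with LKB1, 0 to 603 for the change between control constructs, and -1.23 to 0.04 for STK11. The change with LKB1 was called for 170 genes grouped by source name, 208 without the 3 conflicting samples and 2044 with array weights. The pBABE comparison gave 3018 without the conflicting samples and the LKB1 arrays gave 9675 with array weights. A treat test against a 2-fold difference left 568 higher and 595 lower. For these moves the cause was not tested, except that treat is stricter by construction. Of 2480 recomputed list counts 2437 stayed within 1.5 times, and none moved by more than 3 genes. Without the 3 arrays low in cell cycle genes, 15 epithelial junction genes were 2-fold lower, 10 hepatic genes 2-fold higher and 6 sterol genes 2-fold lower. CREB and CRTC targets then had 6 higher and 4 lower.

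Sign changes touched only genes that did not pass. Leaving out single arrays gave -0.1 to 0.14 for EGFR, -0.13 to 0.07 for MAGEL2, -0.08 to 0.05 for KRT7, -0.71 to 0.05 for FST, -0.09 to 0.02 for MIR429, -0.02 to 0.1 for MIR200A and -0.06 to 0.01 for TAP1. By source name EGFR was -0.24; without the conflicting samples AFP was -0.02, EGFR -0.13 and MIR200A -0.02. Array weights gave EGFR -0.01, NDN 0.00 and TAP1 0.01, and equal weight of constructs MAGEL2 0.01 and STK11 0.03. Without the 3 low arrays EGFR was -0.20, HMGCS1 -0.09, MAGEL2 0.01, MIR429 0.00 and ZEB2 -0.02, and without the 2 A549 arrays with STK11 against the label EGFR was -0.09, MAGEL2 0.04 and TAP1 0.01. SMARCA2 passed with median centring (adjusted p = 0.0284), quantile normalization (0.0425) and pooled constructs (0.0447), NQO1 with the trended prior (0.0354), and NQO1 and CPS1 with array weights (0.0397 and 0.0265). COL1A1 passed with the replicate block (0.0403) and median centring (0.0492). STK11 passed in limma without the 2 A549 arrays with STK11 against the label (-0.47, adjusted p = 0.0193). Those arrays were picked by their STK11 level, and the permutation test without them gave p = 0.762. Low levels cannot be told from background.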
